A study of Homo sapiens with 10 samples.

Results

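The 6 genes described here encode the ISG15 conjugation pathway: the modifier *ISG15*, its activating enzyme *UBA7*, its conjugating enzyme *UBE2L6*, the ligases *HERC5* and *HERC6*, and the protease *USP18*. They were chosen by name for these roles, and are 6 of the 59386 genes counted in each library. All 6 were among the 16899 genes that passed the filter on low counts, and their counts in the controls ran from 31 for *UBA7* to 745 for *HERC6*. RNA came from VCaP, an established human prostate cancer cell line, harvested 72 h after transfection. Cells received siRNA A or siRNA B against *SMARCA4*, an ATPase of the SWI/SNF chromatin remodelers, or siRNA A or siRNA C against *SMARCA1*, an ATPase of the ISWI remodelers, each at 30 pmol. The control libraries are labelled control, and neither the agent nor the dose given to them is stated. Each of these 5 groups has 2 libraries, and each knockdown below is the mean of its 2 siRNA groups, or 4 libraries.

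ISG15 is a small ubiquitin-like protein that is attached to lysines of other proteins. As with ubiquitin, the attachment runs through an E1 enzyme (UBA7), an E2 enzyme (UBE2L6) and an E3 ligase (in human cells mainly HERC5), and USP18 removes it again. The genes of the pathway are known as interferon-stimulated genes: the transcription factor complex ISGF3, which includes STAT2 and IRF9, binds an element called ISRE in their promoters, and USP18 in turn restrains the interferon receptor. ISG15 also exists as a free protein, which the RNA levels here do not address.

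Total counts per library ran from 23898545 to 34667965. In counts per 1000000 counts of the library (CPM, scaled by the TMM method of edgeR), *SMARCA4* measured 242 and 268 in the controls and 13.3 to 25.2 in its knockdown, and *SMARCA1* measured 31.5 and 32.3 in the controls and 1.75 to 3.40 in its knockdown. The targeted gene was lower in every library labelled as its knockdown. In *SMARCA4* knockdown, *SMARCA1* itself was higher than in the controls (log2 fold change 1.07 ± 0.18 SE, edgeR adjusted p = 0.001). The 8 prostate epithelial and VCaP markers summed to 9832 and 9937 CPM in the controls, 8051 to 9503 in *SMARCA4* knockdown and 7210 to 7532 in *SMARCA1* knockdown, with no overlap between these groups. Gene by gene, 3 of the 8 were called higher and 1 lower in *SMARCA4* knockdown, with a median log2 fold change of 0.10. In *SMARCA1* knockdown 0 were called higher and 4 lower (median -0.22). Of all tested genes, 22.8% were called higher and 22.3% lower in *SMARCA4* knockdown, and 23.8% and 23.0% in *SMARCA1* knockdown. Of 8 leukocyte markers, *MS4A1* was at 0 in every library, and *PTPRC*, *CD3E* and *NKG7* had at most 1 count in any library. The summed leukocyte markers nevertheless ran from 2.38 to 2.71 CPM in the controls, from 2.42 to 16.0 in *SMARCA4* knockdown and from 9.10 to 23.7 in *SMARCA1* knockdown, with *LYZ* at 14 and 19 counts in the controls and 48 to 713 in the knockdown libraries. The other tested leukocyte marker, *CD14*, was called lower in both knockdowns (37 and 49 counts in the controls, 16 to 42 in the knockdown libraries), and *CSF1R* had 1 and 10 counts in the controls and at most 1 in the knockdown libraries. Of 6 fibroblast and endothelial markers, none was at 0 in every library, *PDGFRB*, *DCN* and *PECAM1* were below 1 CPM throughout, and the sums were 6.98 and 14.3 CPM in the controls, 9.59 to 17.7 in *SMARCA4* knockdown and 11.2 to 20.7 in *SMARCA1* knockdown. The part of these markers in the results below was not tested.

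In the annotation of the count files (GRCh38), *ISG15* lies on chromosome 1 (1001138 to 1014540, plus strand), *UBA7* on chromosome 3 (49805209 to 49813953, minus strand) and *UBE2L6* on chromosome 11 (57551656 to 57568284, minus strand). *HERC6* (88378739 to 88443097) and *HERC5* (88457119 to 88506163) are neighbours on the plus strand of chromosome 4, with 14022 bases between them. *USP18* lies on chromosome 22 (18150170 to 18177397, plus strand). Over 49.4% of the bases of its longest transcript, *USP18* is at least 95% identical to *USP41*. The same transcript matches other annotated genes at this identity over 36.3% and 33.7% of its bases, and their counts are not given here. The *USP18* counts are therefore uncertain to the extent that the counting divided reads between these copies. *USP41* had 0 counts in both controls and 26 to 105 counts in the knockdown libraries, between 0.299% and 0.575% of the *USP18* count of the same library.

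The promoters of *ISG15* and *HERC5* are shown because they hold matches to the ISRE core, searched as GAAANNGAAA on both strands. RefSeq promoter windows (GRCh38.p14, 250 bases before to 50 bases after the transcription start) were matched for 4 of the 6 genes, *ISG15*, *UBE2L6* (2 windows), *HERC5* and *HERC6*. The stretch shown for *ISG15* is chr1:1013354-1013429 on the plus strand, which lies within an intron of the longer *ISG15* model in the count files and upstream of the RefSeq start at 1013497. The stretch shown for *HERC5* is chr4:88456964-88457084 on the plus strand, directly upstream of the gene, and no annotated exon lies in it. Capitals mark the ISRE matches, which in *HERC5* read on the opposite strand.
ISG15: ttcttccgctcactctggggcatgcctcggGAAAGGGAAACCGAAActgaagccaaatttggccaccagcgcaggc
HERC5: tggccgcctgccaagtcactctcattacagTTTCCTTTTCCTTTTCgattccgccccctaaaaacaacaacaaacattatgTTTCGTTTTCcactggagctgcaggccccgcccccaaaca

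The *ISG15* window held 2 overlapping matches, 113 to 104 and 107 to 98 bases before the start. The *HERC5* window held 3 matches, of which those at 125 to 116 and 119 to 110 bases before the start overlap and the third lies 74 to 65 bases before it. Among 35116 RefSeq promoter windows of 300 bases, 1255 (3.57%) held this motif. The *HERC6* window and both *UBE2L6* windows held none, and none of the 5 windows held the GAS motif TTCNNNGAA (7.66% of all windows), which says only that these letters are not in these windows.

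All 6 genes of the pathway were far higher in both knockdowns than in the controls. Each of the 8 knockdown libraries exceeded both controls for each gene, as they did for 19.6% of all tested genes. The lowest knockdown library exceeded the higher control by 10.3-fold for *UBA7*, the smallest such gap of the 6 genes, and by 91.0-fold for *ISG15*, the largest. In *SMARCA4* knockdown, 6 of 6 were called higher (22.8% of all tested genes were), with log2 fold changes from 4.50 to 7.66 and a median of 5.07 against a median of 0.002 over all tested genes. In *SMARCA1* knockdown, 6 of 6 were called higher (23.8% of all tested genes), with log2 fold changes from 4.42 to 7.85 and a median of 5.61 against -0.004 over all genes. Both knockdowns were set against the same 2 control libraries. In bulk RNA, more cells expressing a gene and more RNA per cell cannot be told apart. The labels do not say whether replicates were separate cultures, so the p-values measure the spread between these libraries, which may be technical.

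**Figure D1:**
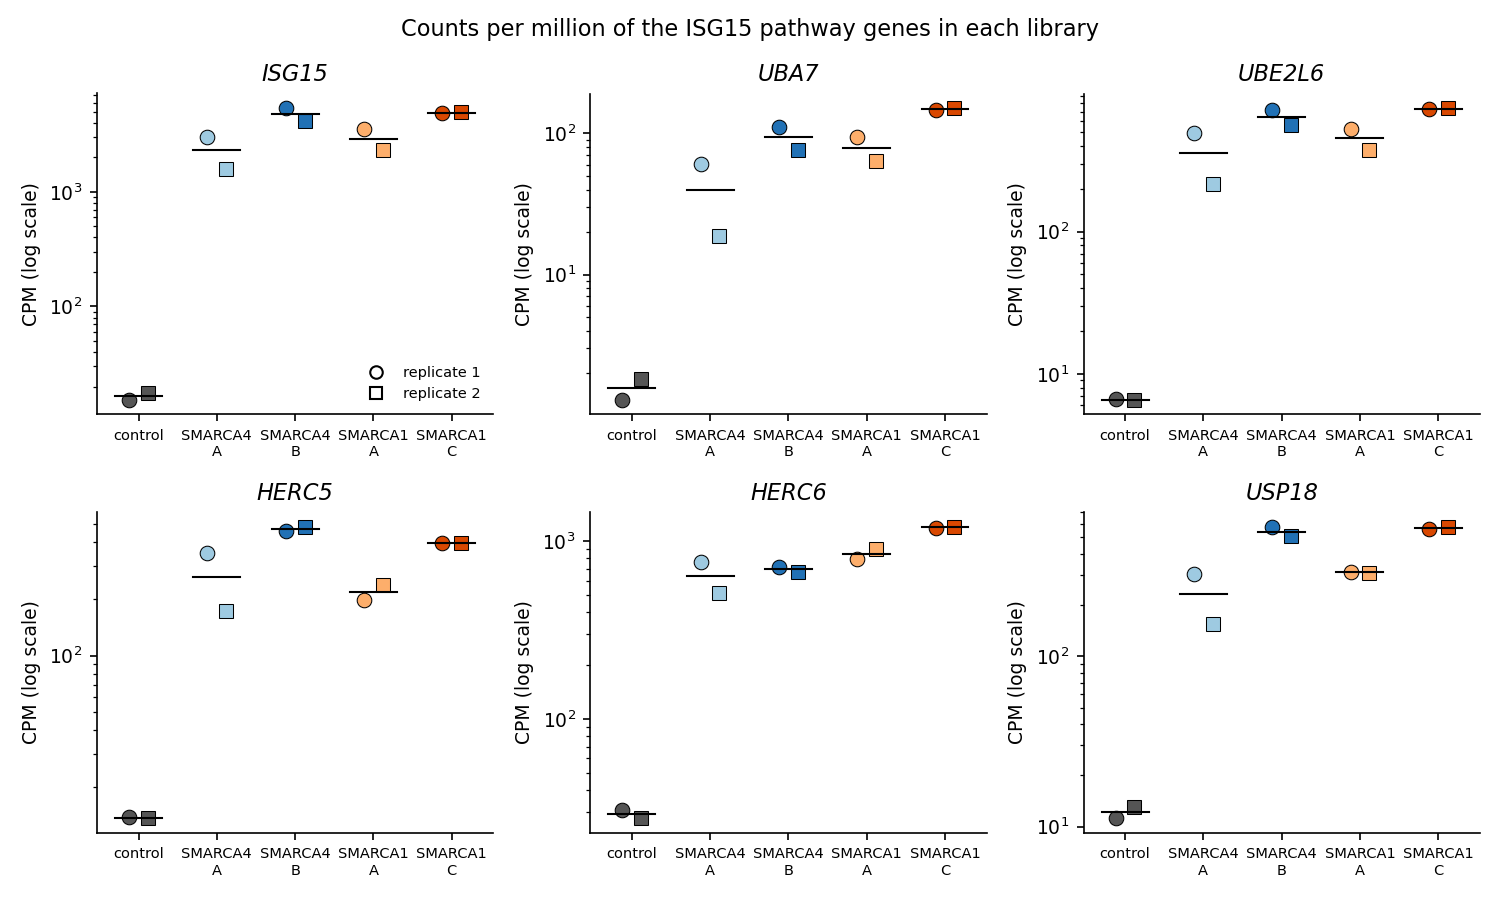
CPM of the 6 genes (log axis, one panel per gene) in the control, *SMARCA4* siRNA A and B, and *SMARCA1* siRNA A and C libraries. Circles and squares are replicates 1 and 2 and lines are group means. Every knockdown library lies above both controls in each panel, and *SMARCA4* siRNA A replicate 2 is the lowest knockdown library in all 6 panels.

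*ISG15*, the modifier itself, changed most. It measured 15.3 and 17.4 CPM in the controls, 3020 and 1583 with *SMARCA4* siRNA A, 5371 and 4166 with *SMARCA4* siRNA B, 3495 and 2325 with *SMARCA1* siRNA A, and 4830 and 4921 with *SMARCA1* siRNA C. The control and knockdown libraries did not overlap, and replicate 2 of *SMARCA4* siRNA A was the lowest of the 8 knockdown libraries. The log2 fold change was 7.66 ± 0.37 (SE) in *SMARCA4* knockdown (202-fold, adjusted p = 1.02e-06) and 7.85 ± 0.37 in *SMARCA1* knockdown (230-fold, adjusted p = 1.04e-06). Per kb of exon, *ISG15* ranked 2169 and 2518 among all genes in the controls. It ranked first in 7 of the 8 knockdown libraries and 4th in *SMARCA4* siRNA A replicate 2. Its reads made up 0.00154% and 0.00176% of all counts in the controls. They made up between 0.162% (95% exact binomial interval 0.160% to 0.163%, counting error only) and 0.534% (0.531% to 0.536%) in the knockdown libraries.

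*UBA7*, the E1 enzyme that activates ISG15, was the least abundant member. It had 31 and 49 counts in the controls, or 1.30 and 1.82 CPM, and measured 60.4 and 18.8 CPM with *SMARCA4* siRNA A, 111 and 76.7 with *SMARCA4* siRNA B, 93.8 and 63.8 with *SMARCA1* siRNA A, and 148 and 151 with *SMARCA1* siRNA C. Its 8 knockdown libraries spanned 8.04-fold, the widest of the 6 genes, with *SMARCA4* siRNA A replicate 2 at the bottom. The log2 fold change was 5.28 ± 0.53 in *SMARCA4* knockdown (adjusted p = 5.4e-05) and 6.11 ± 0.55 in *SMARCA1* knockdown (adjusted p = 4.61e-05).

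*UBE2L6*, the E2 enzyme, measured 6.61 and 6.58 CPM in the controls, 496 and 218 with *SMARCA4* siRNA A, 718 and 567 with *SMARCA4* siRNA B, 528 and 377 with *SMARCA1* siRNA A, and 726 and 741 with *SMARCA1* siRNA C. Its controls were nearly equal, and no knockdown library came within 33.0-fold of them. It had the second largest change of the 6 genes in both knockdowns, with log2 fold changes of 6.18 ± 0.38 (adjusted p = 4.3e-06) and 6.45 ± 0.39 (adjusted p = 4.35e-06) in *SMARCA4* and *SMARCA1* knockdown.

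*HERC5*, the main ISG15 ligase of human cells, measured 13.9 and 13.7 CPM in the controls, 351 and 172 with *SMARCA4* siRNA A, 462 and 486 with *SMARCA4* siRNA B, 198 and 238 with *SMARCA1* siRNA A, and 398 and 397 with *SMARCA1* siRNA C. It was the only member whose mean was higher in *SMARCA4* than in *SMARCA1* knockdown, and that difference did not pass the test. The log2 fold change was 4.67 ± 0.29 in *SMARCA4* knockdown (25.5-fold, adjusted p = 4.3e-06) and 4.42 ± 0.28 in *SMARCA1* knockdown (21.4-fold, adjusted p = 6.34e-06).

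*HERC6*, the closest relative of *HERC5* and the main ISG15 ligase of mouse cells, measured 30.9 and 27.7 CPM in the controls. It measured 760 and 513 with *SMARCA4* siRNA A, 714 and 672 with *SMARCA4* siRNA B, 796 and 907 with *SMARCA1* siRNA A, and 1191 and 1207 with *SMARCA1* siRNA C. Here the 4 *SMARCA4* libraries all lay below the 4 *SMARCA1* libraries, an order that 13.8% of all tested genes had. The log2 fold change was 4.50 ± 0.19 in *SMARCA4* knockdown (22.7-fold, adjusted p = 4.89e-07) and 5.11 ± 0.19 in *SMARCA1* knockdown (34.5-fold, adjusted p = 6.01e-07).

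*USP18*, the ISG15 protease and a brake on interferon receptor signaling, measured 11.2 and 13.1 CPM in the controls, 306 and 156 with *SMARCA4* siRNA A, 572 and 506 with *SMARCA4* siRNA B, 314 and 309 with *SMARCA1* siRNA A, and 558 and 578 with *SMARCA1* siRNA C. Both libraries of *SMARCA4* siRNA A lay below both of *SMARCA4* siRNA B (26.8% of all tested genes had this order). Both libraries of *SMARCA1* siRNA A lay below both of *SMARCA1* siRNA C (26.4%). The log2 fold change was 4.86 ± 0.28 in *SMARCA4* knockdown (adjusted p = 3.19e-06) and 5.11 ± 0.28 in *SMARCA1* knockdown (adjusted p = 2.71e-06). For its near copy *USP41*, which was at 0 in both controls, the knockdown means were at least 16.8-fold and 15.9-fold above the level that a floor of 3 counts in each control library would give. The *USP41* counts were only 0.299% to 0.575% of the *USP18* count of the same library. Whether they are reads of *USP18* was not tested.

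Each siRNA alone also called 6 of 6 members higher. The share of all tested genes called higher was 17.4% with *SMARCA4* siRNA A, 23.0% with *SMARCA4* siRNA B, 18.5% with *SMARCA1* siRNA A and 23.8% with *SMARCA1* siRNA C. The median log2 fold change of the members was 4.55, 5.68, 5.25 and 6.06 in the same order. These 4 comparisons share the control libraries. Among the siRNA sequences listed for the study, those against *SMARCA4* are 27 nt long, those against *SMARCA1* 25 nt and the negative control 19 nt. Whether that negative control is what the control libraries received is not stated, and the length of the siRNA and the knockdown cannot be told apart in this design.

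**Figure D2:**
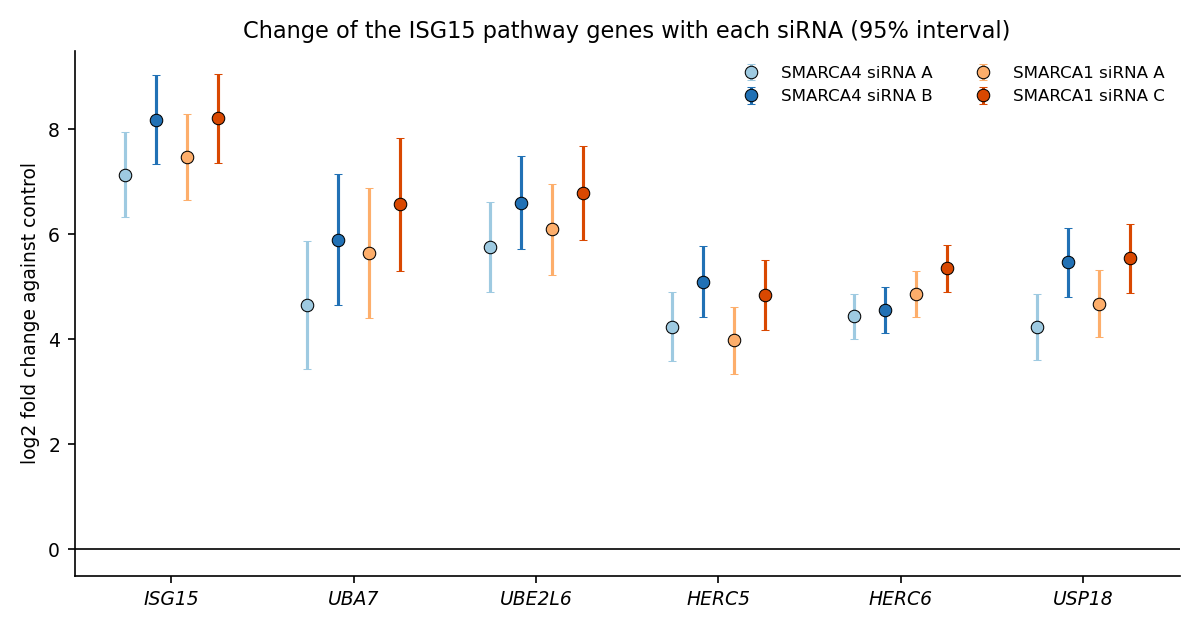
Log2 fold change of each gene with each of the 4 siRNAs against the controls (points, edgeR) with 95% intervals (bars). Every interval lies above 3, and *ISG15* has the highest point with each siRNA, from 7.13 with *SMARCA4* siRNA A to 8.22 with *SMARCA1* siRNA C.

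Compared directly, *SMARCA4* and *SMARCA1* knockdown differed for 1 of the 6 genes, when 35.4% of all tested genes were called. *HERC6* was lower in *SMARCA4* knockdown, with means of 665 ± 107 and 1025 ± 206 CPM (SD, n = 4 each), a log2 difference of -0.61 ± 0.12 (SE) and an adjusted p of 0.00367. The difference for *UBA7*, -0.83 ± 0.30, missed the threshold narrowly (adjusted p = 0.0504), with a 95% interval from -1.49 to -0.18. It was called with upper quartile normalization, library totals only, either other filter on counts and the replicate number as a block. It was not called with DESeq2, RLE normalization, a minimum log2 fold change of 1 or the compared libraries alone. For the other 4 genes the differences were -0.27 (*UBE2L6*, interval -0.75 to 0.22), -0.25 (*USP18*, -0.64 to 0.13), -0.19 (*ISG15*, -0.62 to 0.25) and 0.26 (*HERC5*, -0.14 to 0.65). Their adjusted p-values lay between 0.27 and 0.484, and these intervals still allow differences of up to 0.75 on the log2 scale. Without *SMARCA4* siRNA A replicate 1, 5 of 6 genes were called lower in *SMARCA4* knockdown, all but *HERC5*, when 30.3% of all genes tested in that fit were called in either direction. Without replicate 2 of the same siRNA (26.0% called), *HERC6* and *HERC5* were called, *HERC5* as higher (0.48, adjusted p = 0.00491). *UBA7* was also called without *SMARCA1* siRNA A replicate 2 (-0.95, adjusted p = 0.0277, 45.5% called).

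**Figure D3:**
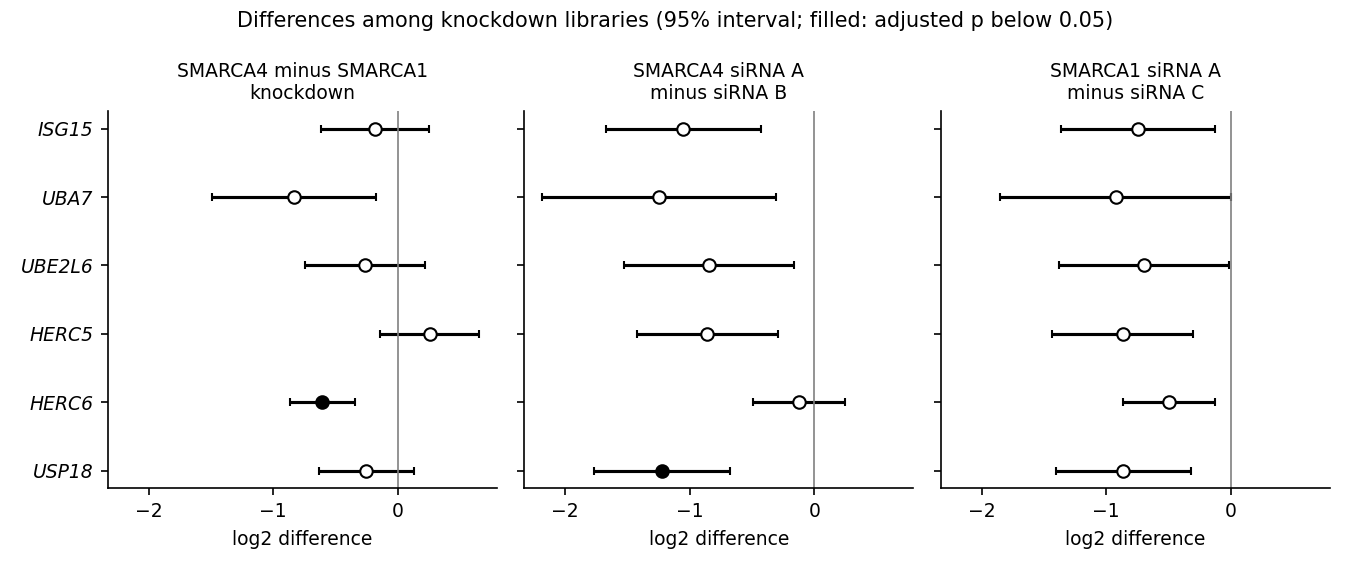
Log2 differences (points) with 95% intervals (bars) between *SMARCA4* and *SMARCA1* knockdown, between the *SMARCA4* siRNAs and between the *SMARCA1* siRNAs. Filled points passed an adjusted p below 0.05, which holds for *HERC6* in the first panel, at -0.61, and for *USP18* in the second, at -1.22. All points of both siRNA panels lie below 0, that is, with siRNA A lower.

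Between siRNAs against the same target, few differences passed the test. With *SMARCA4* siRNA A, 5 of the 6 genes had both libraries below both libraries of siRNA B, the exception being *HERC6* (26.8% of all tested genes had this order), and 1 of 6, *USP18*, was called (6.20% of all tested genes were called). The log2 difference of *USP18* was -1.22 ± 0.25 (adjusted p = 0.0225), with 231 ± 107 against 539 ± 46.1 CPM (SD, n = 2 each). Those of *ISG15* (-1.05, adjusted p = 0.0534), *HERC5* (-0.86, 0.0709), *UBA7* (-1.25, 0.104) and *UBE2L6* (-0.85, 0.125) did not pass, and that of *HERC6* was -0.12 ± 0.17 (0.712). DESeq2 called *ISG15*, *UBE2L6* and *HERC5* beside *USP18*, or 4 of 6 (9.91% of all tested genes). The call of *USP18* was lost without *SMARCA4* siRNA A replicate 2 (-0.82, adjusted p = 0.056), the library in which all 6 genes were lowest. It was also lost without *SMARCA4* siRNA B replicate 1 (0.104), *SMARCA4* siRNA B replicate 2 (0.0777) or *SMARCA1* siRNA C replicate 2 (0.051), while without *SMARCA4* siRNA A replicate 1 all genes but *HERC6* were called, 5 of 6 (7.22% of all genes tested in that fit).

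With *SMARCA1* siRNA A, 6 of 6 genes had both libraries below both libraries of siRNA C (26.4% of all tested genes did), by log2 differences from -0.93 (*UBA7*) to -0.49 (*HERC6*). None of the 6 passed in edgeR (adjusted p from 0.152 to 0.291, 0.0118% of all tested genes called), while 6 of 6 had an unadjusted p below 0.05 (17.1% of all tested genes). DESeq2 called 2 of 6, *HERC5* and *USP18* (3.05% of all tested genes), as edgeR also did without replicate 1 (1.83%) or replicate 2 (1.84%) of *SMARCA4* siRNA A. *SMARCA1* siRNA A lowered its target to 2.57 ± 1.17 CPM and siRNA C to 3.02 ± 0.249 (SD, n = 2 each), a difference that was not called (adjusted p = 0.705). *SMARCA4* siRNA A left more of its target, 24.2 ± 1.45 CPM, than siRNA B, 15.9 ± 3.76 CPM (log2 difference 0.60 ± 0.15, adjusted p = 0.0485).

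Ordered by group mean, the control was lowest for each gene and differed from the next group (adjusted p at most 0.000275 for each). *SMARCA4* siRNA A, *SMARCA1* siRNA A, *SMARCA4* siRNA B and *SMARCA1* siRNA C followed in that order for *ISG15*, *UBA7*, *UBE2L6* and *USP18*. The only neighbouring knockdown groups that differed were *SMARCA1* siRNA A and *SMARCA4* siRNA B for *USP18* (log2 difference 0.79 ± 0.24, adjusted p = 0.0372). *HERC5* had *SMARCA1* siRNA A lowest and *SMARCA4* siRNA B highest of the knockdown groups, and *HERC6* had both *SMARCA4* groups below both *SMARCA1* groups. Across targets, *SMARCA4* siRNA A was called lower than *SMARCA1* siRNA C for 5 of 6 genes, all but *HERC5* (23.0% of all tested genes were called), and *SMARCA4* siRNA B was called higher than *SMARCA1* siRNA A for *HERC5* and *USP18* (26.1%). *SMARCA4* siRNA B was called lower than *SMARCA1* siRNA C for *HERC6* alone (17.8%). Between the siRNA A groups, edgeR called 0 of 6 (21.5% of all tested genes called), with 2 of 6, *UBA7* and *HERC6*, at an unadjusted p below 0.05 (36.8% of all tested genes).

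The share of *ISG15* among the members differed between controls and knockdowns. In CPM per kb of exon, the scale on which levels of different genes can be compared, *ISG15* made up 49.9% and 52.3% of the summed level of the 6 genes in the controls and 82.5% to 87.3% in the knockdown libraries. On this scale *ISG15* exceeded *USP18* by 2.84-fold and 2.94-fold in the controls and by 16.1-fold to 23.8-fold in the knockdown libraries, with no overlap. *UBE2L6* exceeded *UBA7*, the enzyme upstream of it, by 7.97-fold and 11.2-fold in the controls. In *SMARCA1* knockdown that ratio was 10.8 to 13.1, which overlaps the controls. In *SMARCA4* knockdown it was 14.2 to 25.6, with no overlap with the controls or with *SMARCA1* knockdown. *HERC6* exceeded *HERC5* in every library. Their ratio was 1.67 and 1.84 in the controls, 1.14 to 2.46 in *SMARCA4* knockdown and 2.46 to 3.32 in *SMARCA1* knockdown, where *SMARCA4* siRNA A replicate 2 all but met the lowest *SMARCA1* library. These ratios were chosen with the levels known and were not tested.

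**Figure D4:**
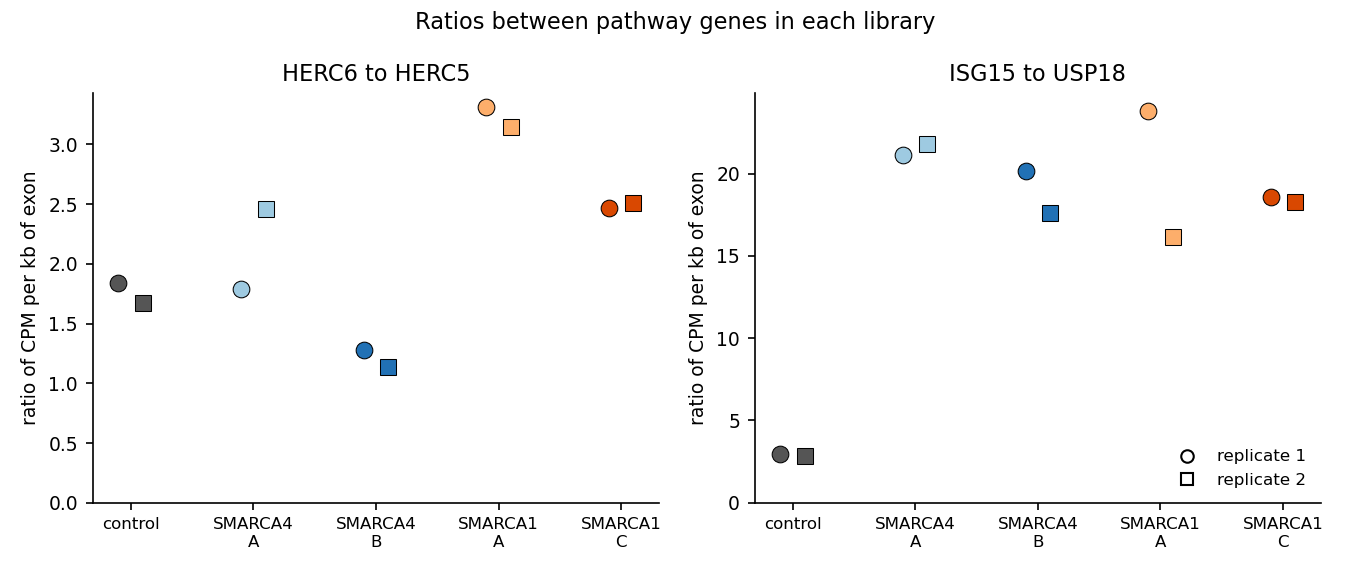
Ratio of *HERC6* to *HERC5* (left) and of *ISG15* to *USP18* (right), in CPM per kb of exon, for each library by group. The first ratio is lowest with *SMARCA4* siRNA B (1.27 and 1.14) and highest with *SMARCA1* siRNA A (3.32 and 3.14), and the second is below 3 in the controls and above 16 in every knockdown library.

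Other components of ISG15 conjugation moved less. *TRIM25*, a ligase that can attach ISG15, rose by 1.86 ± 0.15 (log2, adjusted p = 1.67e-05) in *SMARCA4* knockdown and by 1.37 ± 0.15 (9.97e-05) in *SMARCA1* knockdown. *ARIH1*, which can also act with UBE2L6, measured -0.06 ± 0.14 in both (adjusted p = 0.731 and 0.741). Of the 4 other HERC proteins, 1 was called in *SMARCA4* knockdown and 3 in *SMARCA1* knockdown. *HERC3* was called higher in both and had 17 counts in each control and 35 to 99 in the knockdown libraries (1.61 ± 0.33 and 1.51 ± 0.33). *HERC1* (-0.74 ± 0.23) and *HERC2* (-0.72 ± 0.20) fell in *SMARCA1* knockdown. Across all tested genes, 22.8% were called higher and 22.3% lower in *SMARCA4* knockdown, and 23.8% and 23.0% in *SMARCA1* knockdown.

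The enzymes that serve ubiquitin and the other ubiquitin-like modifiers showed no such rise. The counts of this paragraph stand beside shares of all tested genes of 22.8% higher and 22.3% lower in *SMARCA4* knockdown. In *SMARCA1* knockdown these shares were 23.8% and 23.0%. Of 9 other E1 subunits, 1 was called higher and 4 lower in *SMARCA4* knockdown and 2 higher and 2 lower in *SMARCA1* knockdown, with median log2 fold changes of -0.09 and -0.16. *UBA1*, the E1 of ubiquitin, rose by 0.45 ± 0.09 and 0.39 ± 0.09. *MOCS3* (-0.73 ± 0.11) and *NAE1* (-0.56 ± 0.09), which serve URM1 and NEDD8, fell most in *SMARCA4* knockdown, and *UBA2* (-0.85 ± 0.08), which serves SUMO, in *SMARCA1* knockdown. Of 8 other E2 enzymes, 1 was called higher and 2 lower in *SMARCA4* knockdown and 2 higher in *SMARCA1* knockdown (medians -0.10 and 0.03). *UBE2Z*, an E2 of ubiquitin, was called higher in both (0.38 ± 0.09 and 0.37 ± 0.09). *UBE2L3*, the E2 closest to *UBE2L6* and a partner of ubiquitin, measured 0.21 ± 0.09 (adjusted p = 0.0655) and 0.36 ± 0.09 (0.00701). Of 14 other modifier genes, 13 were tested: 2 were called higher and 6 lower in *SMARCA4* knockdown, and 2 higher and 1 lower in *SMARCA1* knockdown (medians -0.35 and 0.12). The ubiquitin fusion gene *RPS27A* fell by 1.28 and 0.72 on the log2 scale, and the modifier *UBD*, also known as FAT10, had at most 1 count in any library. Of 6 other proteases reported to act on ISG15, 2 were called in *SMARCA4* knockdown, both lower, and 3 in *SMARCA1* knockdown. *USP13* fell in both (-0.98 ± 0.17 and -1.10 ± 0.17), *USP5* in *SMARCA4* knockdown (-0.46 ± 0.10) and *USP14* in *SMARCA1* knockdown (-0.53 ± 0.11), where *USP2*, at 14 and 29 counts in the controls, rose by 1.40 ± 0.36.

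**Figure D5:**
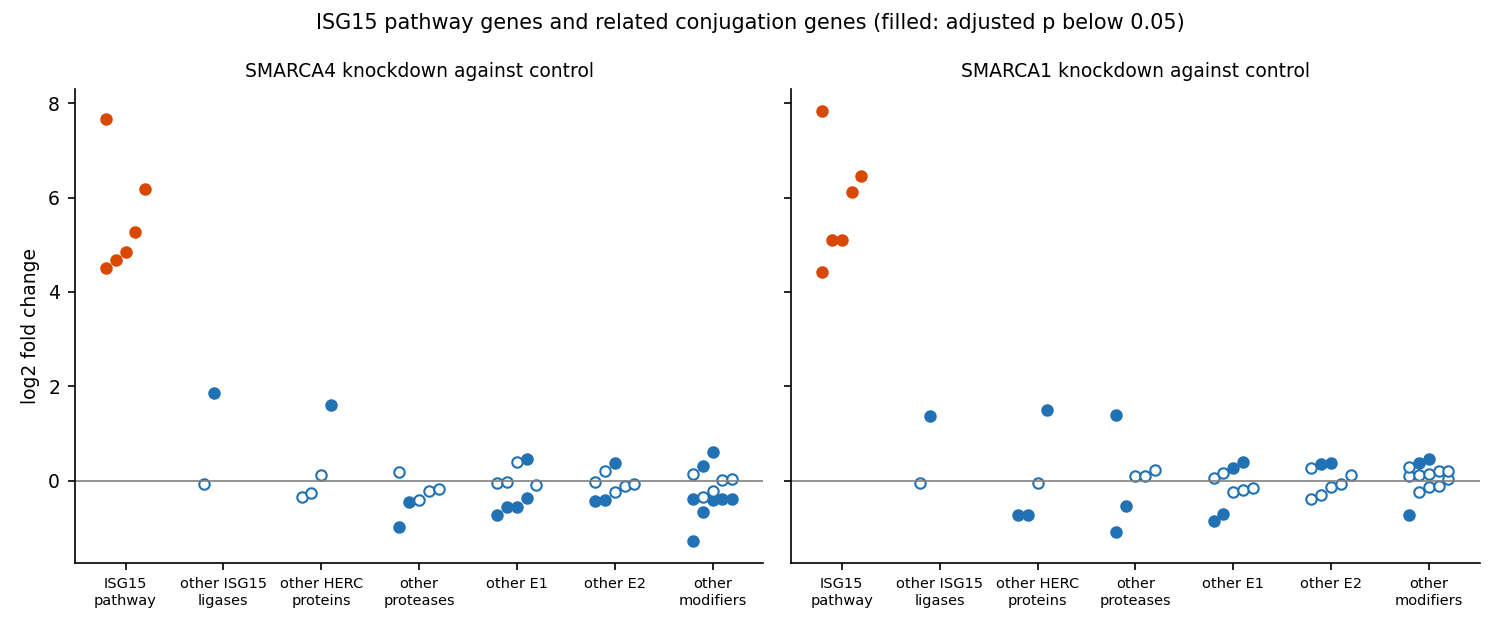
Log2 fold change of the 6 pathway genes (orange) and of the tested genes of 6 related groups (blue) in each knockdown against the controls; filled points passed an adjusted p below 0.05. The pathway genes lie between 4.42 and 7.85, and the highest related gene, *TRIM25* in *SMARCA4* knockdown, lies at 1.86.

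The genes that govern interferon signaling were measured beside the pathway. Of 10 regulators, 7 were called in *SMARCA4* knockdown and 8 in *SMARCA1* knockdown, each of them higher, with medians of 1.90 and 1.60. Of all tested genes, 22.8% and 23.8% were called higher in these comparisons. Among ISGF3 subunits, *STAT2* rose by 3.38 ± 0.20 and 2.30 ± 0.19, and *IRF9*, at 10 and 14 counts in the controls, by 3.55 ± 0.24 and 3.17 ± 0.24. *STAT2* was higher in *SMARCA4* than in *SMARCA1* knockdown (1.07 ± 0.14, adjusted p = 0.000416), opposite in sign to *HERC6*. *IRF7*, which amplifies interferon transcription, rose by 4.50 ± 0.20 and 4.27 ± 0.20. Of 3 genes tied to USP18, *STAT2* is given above, the receptor subunit *IFNAR2*, to which USP18 binds, measured 0.26 ± 0.12 (adjusted p = 0.107) and 0.47 ± 0.12 (0.0113), and *SKP2*, a ubiquitin ligase subunit reported to act on USP18, fell by 0.61 and 0.94. *ITGB2*, a subunit of the receptor of free ISG15, was not called in either knockdown, and its partner *ITGAL* had at most 1 count in any library.

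Interferon transcripts themselves were also higher. *IFNB1* had 0 counts in both controls and 43 to 317 in the knockdown libraries, its means being at least 35.5-fold and 54.3-fold above the level of 3 counts per control library in *SMARCA4* and *SMARCA1* knockdown (adjusted p = 7.76e-05 and 6.88e-05). *IFNL1*, a type III interferon, had 0 and 1 counts in the controls and 184 to 1130 in the knockdown libraries (adjusted p = 2.9e-05 and 4.64e-05). Of 9 interferon genes listed, 5 were tested and 4 were called higher in each knockdown (22.8% and 23.8% of all tested genes were). The others called were *IFNL2* and *IFNL3*, with at most 1 count in the controls and at least 174 in each knockdown library. *IFNG* and *IFNK* had 0 counts in every library, and *IFNA1* and *IFNA2* at most 6. The group means of *IFNB1* were 2.37 CPM with *SMARCA4* siRNA A, 3.06 with *SMARCA1* siRNA A, 6.05 with *SMARCA4* siRNA B and 9.79 with *SMARCA1* siRNA C, the same order as those of *ISG15*. For *ISG15*, no neighbouring knockdown groups in that order differed (edgeR adjusted p from 0.0842 to 0.95). The group means of *IFNL1* ran in another order, with *SMARCA1* siRNA A (11.7 CPM) lowest, followed by *SMARCA4* siRNA A (12.2), *SMARCA4* siRNA B (30.4) and *SMARCA1* siRNA C (33.2). The part of interferon in the levels of the 6 genes was not tested.

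Of 21 genes for proteins reported to carry ISG15, 20 were found in the files and tested, and some of them also stand among the regulators. In *SMARCA4* knockdown 9 were called higher and 4 lower (median 0.27), and in *SMARCA1* knockdown 10 higher and 2 lower (median 0.27). The shares of all tested genes were 22.8% higher and 22.3% lower in *SMARCA4* knockdown, and 23.8% and 23.0% in *SMARCA1* knockdown. The largest rises were those of *MX1* (8.69 ± 0.30 and 8.83 ± 0.30) and *IFIT1* (9.16 ± 0.41 and 8.98 ± 0.41), both interferon-stimulated antiviral genes. *PCNA* (-0.84 ± 0.08) fell in *SMARCA4* knockdown and *EIF4E2* (-0.26 ± 0.09) in *SMARCA1* knockdown.

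As a description over the 10 libraries, which fall into controls and knockdowns and therefore give high values to any gene with that contrast, the genes outside the 6 members that were most like each member in log2 CPM were *OAS1*, *OASL* and *IFIT3* for *ISG15*, *PSMB10*, *APOL1* and *IFI35* for *UBA7*, and *OASL*, *SP100* and *DHX58* for *UBE2L6*. They were *LAMP3*, *NLRC5* and *MYD88* for *HERC5*, *IFI44L*, *SAMHD1* and *IFI44* for *HERC6*, and *TMEM140*, *LAP3* and *NMI* for *USP18*. Pearson r of these genes lay between 0.995 and 1.00, and 13646 genes with a mean of 1 CPM or more were compared. Over the 8 knockdown libraries alone, those most like *ISG15* were *PSMB8*, *TAPBPL* and *PSMB9* (r from 0.990 to 0.994) and those most like *USP18* were *KLB*, *TMEM140* and *STAT3* (r from 0.992 to 0.997). These were picked as the highest of 13646 genes over few libraries, so a high r was bound to be found. Between members in these 8 libraries, r was highest for *ISG15* and *UBE2L6* (0.983) and lowest for *HERC5* and *HERC6* (0.370), although these ligase genes lie side by side on chromosome 4.

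The nearest tested genes on each side, members aside, moved in either direction. *HES4*, 966 bases from the longer *ISG15* model of the count files, rose by 1.99 ± 0.24 and 2.46 ± 0.24. That model starts at 1001138, well before the RefSeq start of *ISG15* at 1013497. *AGRN*, on the other side of *ISG15*, rose by 1.39 ± 0.15 and 1.60 ± 0.15. Beside *UBA7*, *INKA1* had 0 counts in the controls and 0 to 14 in the knockdown libraries, and *TRAIP* fell by 0.40 in *SMARCA4* knockdown and was not called in *SMARCA1* knockdown. Beside *UBE2L6*, *SERPING1* rose by 2.24 ± 0.61 and 3.99 ± 0.57, from 4 and 17 counts in the controls to between 15 and 306, and *TIMM10* fell by 0.73 in *SMARCA4* knockdown. *PPM1K-DT*, on the *HERC6* side of the ligase pair, rose by 2.15 ± 0.40 and 1.62 ± 0.41, and *NCOA4P2* on the *HERC5* side was called in neither knockdown. *TUBA8*, beside *USP18*, fell by 1.61 in *SMARCA4* knockdown, at 12 and 22 counts in the controls, and *TMEM191B* on the other side was called in neither.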

How the data were processed

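The authors trimmed adaptors from strand-specific paired-end reads of polyadenylated RNA, aligned them with HISAT2 (2.1.0, per the submitters' processing notes) to hg38, counted them per gene with featureCounts (1.5.2) on GENCODE annotations of a release not given in the sources used here, and deposited raw counts per gene without normalization. Gene lengths are those of the same deposited count files. Groups and replicates follow the sample labels.

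The counts were tested with the quasi-likelihood functions glmQLFit and glmQLFTest (edgeR 4.0.16 under R 4.3.3), with one model holding the 10 libraries in their 5 groups. The filterByExpr step required a count of 10 and a total of 15, and TMM factors scaled the totals. All p-values are two-sided. Unless named unadjusted, they carry the Benjamini-Hochberg correction for the genes tested in the same fit, 16899 in the main one. A gene was called at an adjusted p under 0.05. SE is the size of the log2 fold change over the root of its F statistic. CPM uses TMM-scaled totals, and CPM per kb divides by the merged exon length. Exact binomial intervals cover counting error only, and 3 counts are the limit that a count of 0 allows (0.0865 to 0.126 CPM). The model was tested on simulated data. Alternatives were DESeq2 1.42.0, other normalizations, filters, a minimum log2 fold change of 1, the compared libraries alone, the replicate number as a block and each library left out.

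The members, lists and tests were chosen with earlier results of these data known. Beside the members, the genes named are SMARCA4 and SMARCA1, fixed names of the pathway, up to 2 highest and 2 lowest called genes of each pathway list in each knockdown, the 3 genes most like each member and the nearest tested neighbours. Other genes of the lists are named where a count of 0 or a whole list is described. Some genes that this rule names are not reported here. Promoters were searched in RefSeq windows (GRCh38.p14), and near copies of USP18 were found with blastn 2.17.0 in matches of at least 100 bases and 95% identity.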

Additional observations from a re-analysis of the deposited data

Results flagged for a closer look

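*HERC6* was flagged because the *SMARCA4* and *SMARCA1* knockdowns differed in the direct test, by -0.61 on the log2 scale (edgeR adjusted p = 0.00367). It was lower in 4 of 4 *SMARCA4* than in any *SMARCA1* library, and it was called with each of the 10 libraries left out in turn, at values from -0.75 to -0.47.

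*USP18* was flagged because *SMARCA4* siRNA A and siRNA B differed, by -1.22 on the log2 scale (edgeR adjusted p = 0.0225), and was lower in 2 of 2 siRNA A libraries. With libraries left out in turn the difference ran from -1.79 to -0.82 and was called in 6 of 10 cases.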

How the results depend on the processing

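Of 1026 log2 fold changes of members over 9 comparisons and 19 alternatives, 970 kept their direction and their side of the threshold, among them all 684 against the controls, 46 newly passed it, 7 no longer passed it and 3 reversed. The reversals, none of them called, came with a library left out. In *SMARCA4* against *SMARCA1* knockdown, *HERC5* ranged from -0.029 without *SMARCA4* siRNA A replicate 1 to 0.48 without replicate 2, and *ISG15* from -0.44 to 0.02 in the same order. Between the *SMARCA4* siRNAs, *HERC6* likewise ranged from -0.43 to 0.12.

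Members called between *SMARCA4* and *SMARCA1* knockdown numbered 2, *HERC6* and *UBA7*, with upper quartile normalization, library totals only or at least 1 CPM in 2 libraries. Of all genes tested, 35.3%, 35.5% and 40.0% were called in these fits. The members numbered 4 with no filter on low counts (20.6% of all genes) and 0 with a minimum log2 fold change of 1 (0.681%). Between the *SMARCA4* siRNAs they numbered 4 with DESeq2 (9.91% of all genes) and 5 with no filter (7.35%). They numbered 2 with upper quartile normalization (6.41%), library totals only (6.65%) or the CPM filter (8.24%). With the minimum fold change (0.00592%) or the compared libraries alone (1.33%) they numbered 0. Between the *SMARCA1* siRNAs they numbered 2 with DESeq2 (3.05% of all genes) and 6 with no filter (3.99%).

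Genes called with the minimum log2 fold change of 1 numbered 785 in *SMARCA4* and 1034 in *SMARCA1* knockdown, 115 between them, 445, 1123, 545 and 1371 with *SMARCA4* siRNA A and B and *SMARCA1* siRNA A and C, 1 between the *SMARCA4* siRNAs and 0 between the *SMARCA1* siRNAs. With a library left out they ranged from 4413 to 9183, 4430 to 9557, 3683 to 8072, 2862 to 7387, 4918 to 9152, 2496 to 7904, 4700 to 9380, 48 to 2907 and 0 to 1927 in the same order. The compared libraries alone gave 3665 for *SMARCA1* siRNA A, 212 between the *SMARCA4* siRNAs and 0 between the *SMARCA1* siRNAs. DESeq2 gave 1674 and 516 and no filter 2352 and 1276 between the *SMARCA4* and between the *SMARCA1* siRNAs. The cause of these shifts was not tested.

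The replicate numbers were not shown to pair the libraries: correlations of same-numbered deviations ran from -0.19 to 0.51 over 13646 genes, the highest being that of the *SMARCA4* siRNAs. With the number as a block, 2 members, *HERC6* and *UBA7*, were called between the knockdowns, as were 37.0% of all tested genes. Between the *SMARCA4* siRNAs 4 members were called (7.70% of all tested genes), *USP18*, *ISG15* (edgeR adjusted p = 0.0225), *UBA7* (0.0419) and *UBE2L6* (0.0494). Between the *SMARCA1* siRNAs 16 genes (0.0947%) were called.

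With 2 libraries per group, leaving one out leaves a lone library, which is assumed to vary like the others.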
